A study of Mus musculus with 11 samples.

Results

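The genes described here encode acute phase proteins that fat makes: Hp, Saa3, Lcn2, Orm1, Lbp, Cp and Serpina3n, with Steap4, a metal reductase that responds to the same cytokines. These 8 symbols were looked up by name in a table of 12787 genes, and 7 of them were listed. Lcn2 was not analysed here. The genes were selected on the log2 CPM of the same diet comparison, whose outcome was already known, so their differences between the groups are given as a description without a test. RNA was sequenced from the gonadal white adipose tissue (WAT) of 11 male C57BL/6J mice, wildtype animals with no transgene, all fed a 60% high fat diet (HFD) for 20 weeks. In 5 of them, labelled Vehicle, the diet held nothing further (HFD), and in 6 it also held 0.06% w/w iodomethylcholine (IMC), which blocks the gut bacterial enzyme that turns choline into trimethylamine (HFD + IMC). Each mouse gave 1 library, and according to the design text 1 further control library was dropped for poor quality. The age of the mice is not stated for this experiment in the sources used here.

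In the acute phase response, cytokines such as interleukin-6, interleukin-1 and tumor necrosis factor change which proteins a tissue secretes into plasma. Signals through STAT3, C/EBP factors and NF-kappaB switch on genes whose products bind hemoglobin, lipids, bacterial lipopolysaccharide or metals, or inhibit proteases. The liver is the classical source, but adipocytes also secrete several of these proteins, and their plasma levels are known to be raised in obesity.

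The promoters of 3 of the genes are shown because they differ in the letters that these factors are known to recognize. Each line holds the 250 bases before the RefSeq start of the gene in assembly GRCm38.p6, written 5' to 3' on the strand of the gene. Capitals mark matches on either strand to TTNNGCAA (C/EBP), TTCNNNGAA (STAT) or the kappaB motif. The Steap4 window lies at chr5:7960222-7960471 on the plus strand, the Saa3 window at chr7:46715677-46715926 on the minus strand and the Serpina3n window at chr12:104406458-104406707 on the plus strand.
Steap4: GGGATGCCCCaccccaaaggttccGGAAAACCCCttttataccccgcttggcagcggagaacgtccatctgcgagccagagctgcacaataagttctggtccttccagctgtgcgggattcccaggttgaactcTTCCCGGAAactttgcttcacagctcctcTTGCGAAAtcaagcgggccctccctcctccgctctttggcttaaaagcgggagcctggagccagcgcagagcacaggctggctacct
Saa3: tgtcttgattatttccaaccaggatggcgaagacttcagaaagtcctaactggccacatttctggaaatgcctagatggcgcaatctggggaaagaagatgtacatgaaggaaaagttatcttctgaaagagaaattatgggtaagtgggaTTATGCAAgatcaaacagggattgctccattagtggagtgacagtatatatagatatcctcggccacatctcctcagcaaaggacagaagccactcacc
Serpina3n: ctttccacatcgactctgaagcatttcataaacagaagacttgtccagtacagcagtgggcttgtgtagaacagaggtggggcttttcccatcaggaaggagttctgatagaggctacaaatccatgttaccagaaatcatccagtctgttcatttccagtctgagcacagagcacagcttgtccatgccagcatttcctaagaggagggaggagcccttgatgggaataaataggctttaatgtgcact
The Steap4 window held 1 match to the C/EBP motif, which began 87 bases before the start, 1 match to the STAT motif at 116 bases, and 2 to the kappaB motif at 226 and 250 bases. The C/EBP and STAT matches did not overlap. The Saa3 window held 1 match, to the C/EBP motif, at 99 bases. The Serpina3n window held none of the 3 motifs. For Cp, a window before its second start held 1 C/EBP match at 70 bases. Among 32841 windows of the same length, 9.57% held the C/EBP letters, 7.02% the STAT letters and 7.25% the kappaB letters. A looser C/EBP form, TTNNGNAA, was found in 36.9% of all windows and in each window of Steap4, Saa3, Serpina3n and Cp. These matches describe letters, and binding at them was not tested.

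Expression is given as log2 CPM, the base-2 logarithm of CPM, which sets the reads of a gene against a library size scaled by the upper quartile. Depth was similar between the groups, with 22320022 to 23635249 reads on the listed genes in HFD mice and 22619505 to 25155366 in HFD + IMC mice. The 7 genes had from 660 reads (Saa3) to 284588 reads (Hp) in a mouse. Over all 12787 genes the median log2 fold change, HFD + IMC minus HFD, was -0.03. At a Benjamini-Hochberg adjusted p under 0.05 by limma, 40.9% of all genes differed between the groups, with 2556 (20%) were higher and 2680 (21.0%) lower in HFD + IMC mice. The groups did not overlap for 23.1% of genes. The labels name no batch and no tie between mice of the groups, so the spread is that between mice.

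The 7 genes all had higher mean levels in HFD + IMC mice. Their log2 fold changes ran from 0.50 (Cp) to 1.31 (Hp), with a median of 1.01. In whole tissue, more cells of a type and more RNA per cell cannot be told apart. Under the threshold above, 7 of 7 were higher and 0 lower, where the share over all genes was 20% higher and 40.9% in either direction. HFD + IMC mice lay entirely above HFD mice for 5 of the 7 genes, where the share over all genes was 12.5%. Nothing is read from these counts, since the choice of the genes rested on the same comparison.

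**Figure D1:**
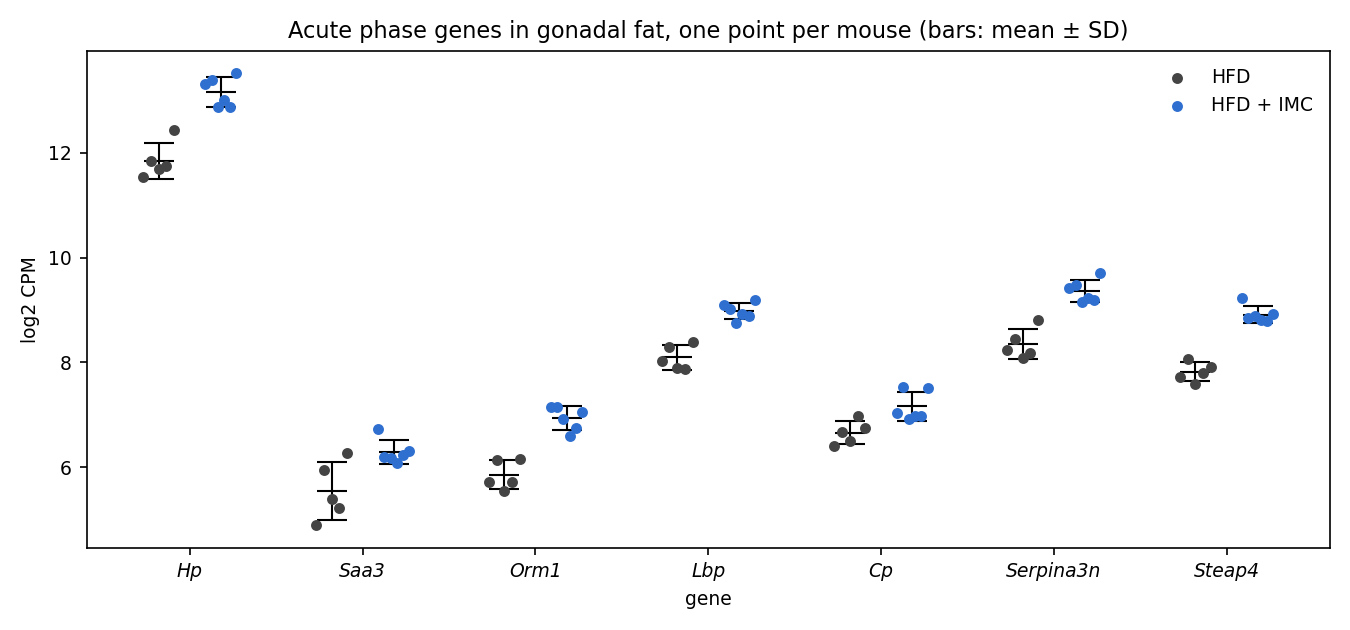
Level of the 7 acute phase genes in log2 CPM, with 1 point for each mouse in the HFD (n = 5) and HFD + IMC (n = 6) groups and bars for the mean ± SD. Points of HFD + IMC mice lie above those of HFD mice for Hp, Orm1, Lbp, Serpina3n and Steap4, and the groups overlap for Saa3 and Cp.

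Hp encodes haptoglobin, the plasma protein that captures free hemoglobin. The gene (ENSMUSG00000031722.10) has 5 exons and lies at chr8:109575128-109579172 on the minus strand of GRCm38. Its level was 11.53, 11.83, 11.68, 11.74 and 12.43 log2 CPM in HFD replicates 1 to 5. In HFD + IMC mice the lowest value was 12.87, the median 13.15 and the highest 13.52 log2 CPM. HFD replicate 5 stood highest among the controls, yet all HFD + IMC mice were above it, with a gap of 0.43. The group means were 11.84 ± 0.35 (SD, n = 5) and 13.16 ± 0.28 (SD, n = 6), a log2 fold change of 1.31 (SE 0.18, 95% interval 0.93 to 1.70), or 2.48-fold.

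Hp was among the genes that drew the most reads. Ranked by reads among the listed genes, with no regard to length, it stood between place 9 and place 21 in HFD mice, with a median of 18. In HFD + IMC mice it stood between place 2 and place 6, with a median of 3.5. It took 0.295% to 0.561% of the reads on listed genes in HFD mice and 0.740% to 1.17% in HFD + IMC mice. The 7 genes together took 0.388% to 0.691% of reads in HFD mice, with a median of 0.448%, and 0.917% to 1.39% in HFD + IMC mice, with a median of 1.10%. Hp alone made up 75.7% to 81.2% of the reads of the 7 genes in HFD mice and 80.5% to 83.6% in HFD + IMC mice, so summed values over these genes are mostly values of Hp.

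**Figure D2:**
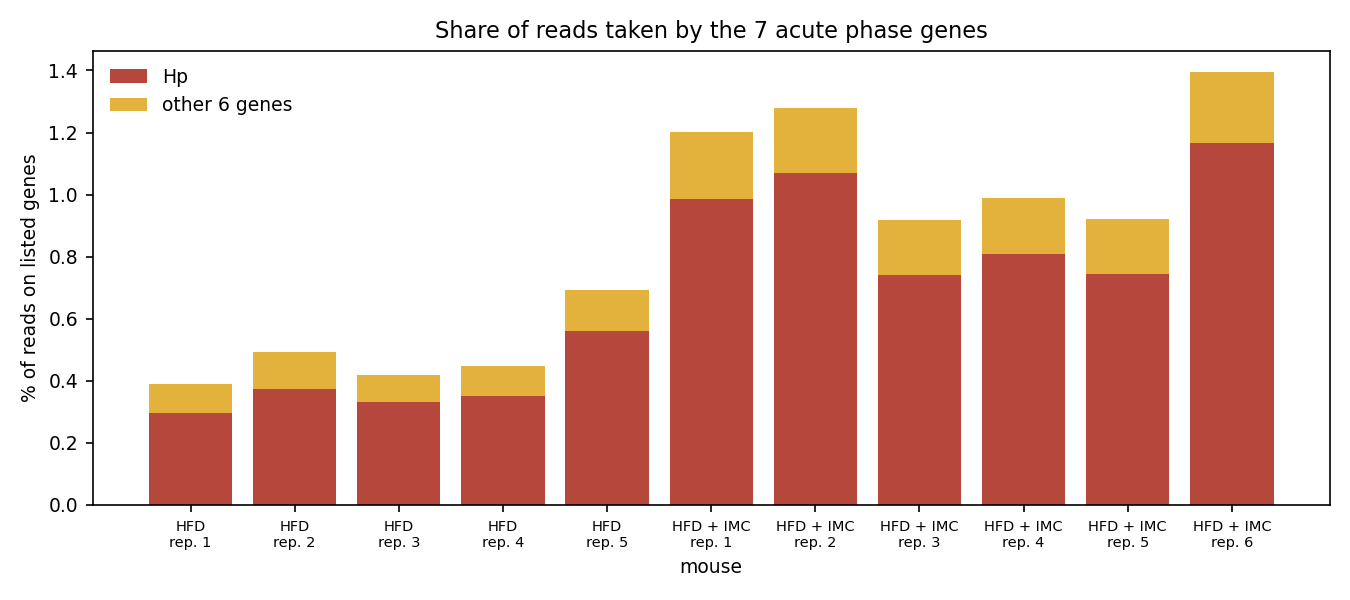
Share of the reads on listed genes, in percent, taken by Hp and by the other 6 acute phase genes in each of the 11 mice, as stacked bars. HFD mice sit between 0.388% and 0.691% and HFD + IMC mice between 0.917% and 1.39%, and Hp is the larger segment in every mouse.

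Saa3, Orm1 and Lbp encode secreted proteins that bind lipids or bacterial products. Saa3 encodes serum amyloid A3, an apolipoprotein of acute phase high-density lipoprotein that is made outside the liver. It has 4 exons at chr7:46711998-46715700 on the minus strand of GRCm38. Its level was 4.89, 5.95, 5.39, 5.22 and 6.27 log2 CPM in HFD replicates 1 to 5. HFD + IMC mice had a lowest value of 6.09, a median of 6.21 and a highest value of 6.74 log2 CPM. HFD replicate 5 lay inside the range of the HFD + IMC mice, so the groups overlapped, while the other 4 controls lay below it. The log2 fold change of Saa3 was 0.74 (SE 0.21, 95% interval 0.29 to 1.19), from 5.55 ± 0.56 (SD, n = 5) to 6.29 ± 0.23 (SD, n = 6). Saa3 had the largest residual SD of the 7 genes, 0.41. Its log2 fold change was 0.58 without HFD replicate 1 and 0.92 without HFD replicate 5. Leaving out either of these controls thus moved the value in opposite directions.

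Orm1 encodes an alpha-1-acid glycoprotein, which carries small lipophilic molecules in plasma. The gene, with 6 exons at chr4:63344560-63348163 on the plus strand, shares 148 of the 726 windows of 50 bases in its transcript (20.4%) with transcripts of Orm2 or Orm3. The sequence of these windows does not tell the copies apart, and how reads from them were counted was not examined. Its level was 5.72, 6.14, 5.55, 5.72 and 6.15 log2 CPM in HFD replicates 1 to 5. In HFD + IMC mice it was 6.60 at the lowest, 6.99 at the median and 7.16 log2 CPM at the highest. The groups did not overlap, and the gap was 0.45. The log2 fold change of Orm1 was 1.08 (SE 0.13, 95% interval 0.81 to 1.36), between means of 5.86 ± 0.27 (SD, n = 5) and 6.94 ± 0.23 (SD, n = 6).

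Lbp encodes lipopolysaccharide-binding protein, which hands bacterial lipopolysaccharide to CD14. The gene has 15 exons at chr2:158306493-158332852 on the plus strand. Its level was 8.02, 8.30, 7.89, 7.88 and 8.39 log2 CPM in HFD replicates 1 to 5. HFD + IMC mice ranged from 8.76 to 9.18 log2 CPM with a median of 8.97. HFD replicates 2 and 5 were the higher controls, and both lay below every HFD + IMC mouse, with a gap of 0.36 between the groups. The log2 fold change of Lbp was 0.88 (SE 0.10, 95% interval 0.66 to 1.11), from 8.10 ± 0.24 (SD, n = 5) to 8.98 ± 0.15 (SD, n = 6).

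Cp and Steap4 encode metal oxidoreductases that work in opposite directions. Cp encodes ceruloplasmin, the copper-carrying ferroxidase of plasma. Its 19 exons lie at chr3:19957054-20009145 on the plus strand and overlap Hps3 on the opposite strand. The libraries were directional, but the strand setting of the count is not given in the sources used here, so reads of Hps3 could have been counted with Cp. The level of Cp was 6.41, 6.67, 6.50, 6.97 and 6.74 log2 CPM in HFD replicates 1 to 5. In HFD + IMC mice the lowest value was 6.93, the median 7.0 and the highest 7.53 log2 CPM. HFD replicate 4 lay above the lowest HFD + IMC mouse, so the groups overlapped. Cp had the smallest log2 fold change of the 7 genes, 0.50 (SE 0.13, 95% interval 0.22 to 0.78), from 6.66 ± 0.22 (SD, n = 5) to 7.16 ± 0.28 (SD, n = 6).

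Steap4 encodes a membrane reductase of iron and copper that adipocytes induce under inflammatory cytokines. The gene has 5 exons at chr5:7960457-7982213 on the plus strand, and its promoter held matches to all 3 motifs. Its level was 7.72, 8.07, 7.59, 7.80 and 7.91 log2 CPM in HFD replicates 1 to 5. HFD + IMC mice had a lowest value of 8.78, a median of 8.87 and a highest value of 9.23 log2 CPM. The values within each group were close together and the gap between the groups was 0.71, the widest of the 7 genes. The log2 fold change of Steap4 was 1.09 (SE 0.09, 95% interval 0.89 to 1.29), from 7.82 ± 0.18 (SD, n = 5) to 8.91 ± 0.16 (SD, n = 6). Its residual SD of 0.17 was the smallest of the 7 genes and stood at percentile 64.1 of all genes.

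Serpina3n encodes a secreted serine protease inhibitor, the mouse counterpart of alpha-1-antichymotrypsin. Its 5 exons lie at chr12:104406729-104414329 on the plus strand. In its transcript, 6.90% of the windows of 50 bases are shared with other genes, most of all Serpina3e-ps, Serpina3g and Serpina3c. Its level was 8.24, 8.45, 8.09, 8.18 and 8.80 log2 CPM in HFD replicates 1 to 5. HFD + IMC mice ranged from 9.15 to 9.70 log2 CPM with a median of 9.33. HFD replicate 5 was again the highest control, and the groups did not overlap, with a gap of 0.35. The log2 fold change of Serpina3n was 1.01 (SE 0.13, 95% interval 0.73 to 1.29), from 8.35 ± 0.29 (SD, n = 5) to 9.36 ± 0.21 (SD, n = 6).

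HFD replicate 5 had the highest value among the controls for 5 of the 7 genes, namely Hp, Saa3, Orm1, Lbp and Serpina3n. The highest control was HFD replicate 2 for Steap4 and HFD replicate 4 for Cp. In the HFD + IMC group no mouse stood out in this way, as replicate 6 was highest for Hp, Lbp and Serpina3n, replicate 1 for Saa3 and Steap4, and replicate 2 for Orm1 and Cp.

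Levels were compared between genes in CPM per kilobase of transcript. Hp was far above the rest, with a mean of 2804 CPM per kilobase in HFD mice (range 2203 to 4111) and 6898 in HFD + IMC mice (range 5550 to 8709). Serpina3n followed, with 161 CPM per kilobase in HFD mice (range 132 to 217) and 322 in HFD + IMC mice (range 275 to 404). Below it in HFD + IMC mice came Lbp with a mean of 200.9 CPM per kilobase, Orm1 with 160.1, Steap4 with 154 and Saa3 with 142. Among these 4 genes, the ranges of neighbours in this order overlapped, though Lbp was above Orm1 within each HFD + IMC mouse. Cp was lowest in both groups, with a mean of 25.3 CPM per kilobase in HFD mice (range 21.1 to 31.1) and 36.1 in HFD + IMC mice (range 30.2 to 45.8). In HFD mice the order below Serpina3n was Lbp, Saa3, Orm1, Steap4 and Cp, and the ranges of neighbours from Serpina3n to Steap4 overlapped. Within each HFD mouse, Serpina3n was above Lbp.

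Markers of adipocytes and macrophages moved between the groups alongside the acute phase genes. For comparison, 20% of all genes were higher and 21.0% lower in HFD + IMC mice. Of the 12 adipocyte markers, 12 were listed and 12 were higher in HFD + IMC mice, with a median log2 fold change of 0.90. Their summed level was 10730 to 15646 CPM in HFD mice and 21527 to 25774 CPM in HFD + IMC mice. Lep, which encodes the adipocyte hormone leptin, had a log2 fold change of 1.04 (adjusted p = 4.14e-05, SE 0.11), Aqp7, a glycerol channel, one of 0.91 (adjusted p = 3.22e-05, SE 0.09), and Acvr1c, an activin receptor, one of 1.16 (adjusted p = 3.5e-05, SE 0.12). Of the 12 macrophage markers, 10 were lower and 0 higher, and their summed level was 12378 to 16733 CPM in HFD mice and 6565 to 10507 CPM in HFD + IMC mice. Cd68, a lysosomal protein, had a log2 fold change of -0.61 (adjusted p = 0.000492, SE 0.10), Trem2, a lipid receptor, one of -0.79 (adjusted p = 7.93e-05, SE 0.10), and Cd9, a tetraspanin, one of -0.70 (adjusted p = 3.5e-05, SE 0.07).

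Other cell types that could carry acute phase transcripts were checked in the same way. Of 12 neutrophil markers, 2 were listed, S100a8 and Csf3r, and neither passed the test. Their summed level was 20.9 to 27.0 CPM in HFD mice and 23.9 to 29.7 CPM in HFD + IMC mice, and the defining genes Ly6g, Ngp, Camp and Mpo were not among the listed genes. Of 14 hepatocyte markers, 13 were listed, 4 were higher and 1 was lower, with a summed level of 164 to 206 CPM in HFD mice and 196 to 305 CPM in HFD + IMC mice. The 4 that were higher, named after their values were seen, were Cyp2e1 (log2 fold change 0.84), Serpina1a (0.71), Apoc3 (0.62) and Apoa1 (0.26). The 1 that was lower, also named after its value was seen, was Ahsg (-0.32, adjusted p = 0.0265). The other 8 were not called, among them Alb, the defining albumin gene, with a log2 fold change of 0.14 (adjusted p = 0.121). Of 10 mesothelial markers, 6 were listed, 1 was lower and 0 higher, and the summed level was 273 to 379 CPM in HFD mice and 126 to 322 CPM in HFD + IMC mice. Of 12 progenitor and fibroblast markers 7 were lower and 0 higher, and of 10 endothelial markers 3 were higher and 0 lower, where 20% of all genes were higher and 21.0% lower. The part of any of these cell types in the values of the acute phase genes was not tested.

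The level of each acute phase gene was also set against the adipocyte markers of the same mouse, by subtracting the mean log2 CPM of the 12 markers. This measure was chosen after the values were known. That mean was 8.19, 8.77, 8.21, 8.36 and 8.75 log2 CPM in HFD replicates 1 to 5, and 9.21 to 9.56 log2 CPM in HFD + IMC mice. On this relative scale the groups overlapped for 7 of 7 genes. The share of all genes that overlap on this scale is not given here, so nothing is read from that count. Whether adipocyte content accounts for the differences in log2 CPM was not tested. The difference between the groups was positive for 4 genes and negative for 3, with a median of 0.07.

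The widest differences on this relative scale belonged to Hp and Cp, in opposite directions. Hp was 3.39 ± 0.22 (SD, n = 5) above the marker mean in HFD mice and 3.76 ± 0.15 (SD, n = 6) above it in HFD + IMC mice, a difference of 0.37. Cp was at -1.80 ± 0.28 (SD, n = 5) and -2.23 ± 0.21 (SD, n = 6), a difference of -0.44. The differences of the other 5 genes were -0.20 for Saa3, -0.06 for Lbp, 0.07 for Serpina3n, 0.14 for Orm1 and 0.15 for Steap4.

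**Figure D3:**
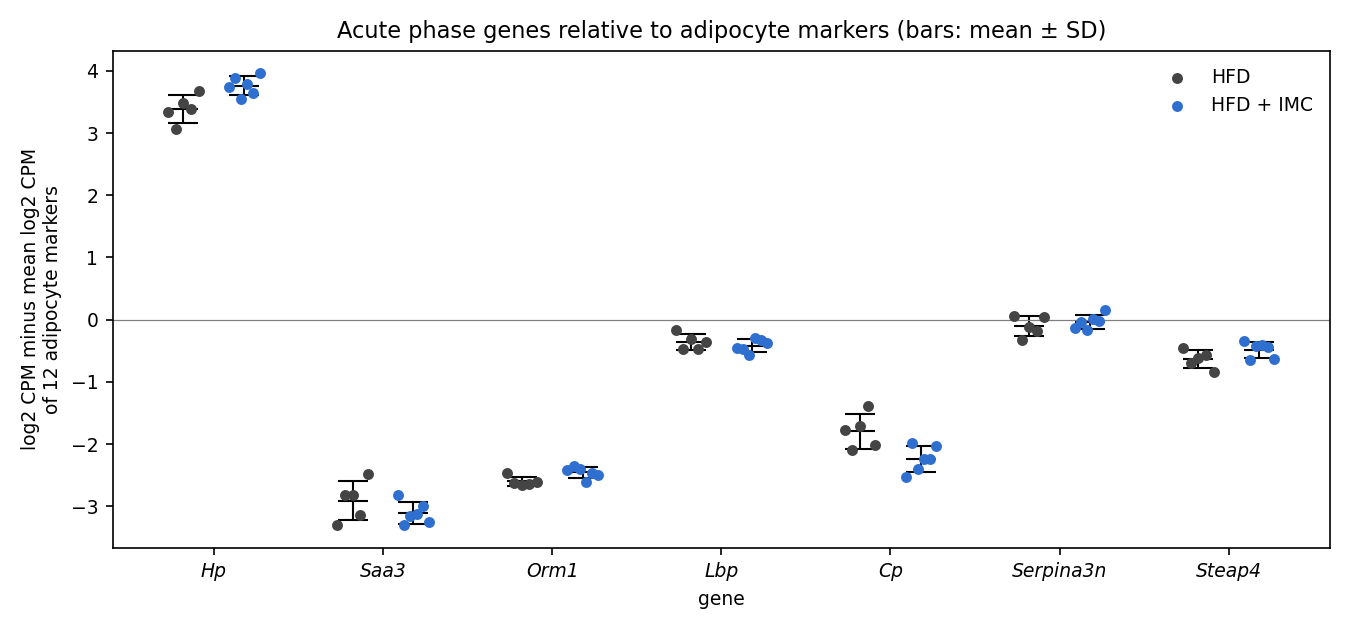
Level of the 7 acute phase genes as log2 CPM minus the mean log2 CPM of 12 adipocyte markers in the same mouse, with 1 point for each mouse and bars for the mean ± SD (n = 5 HFD, n = 6 HFD + IMC). The groups overlap for every gene, with a difference of 0.37 for Hp and -0.44 for Cp.

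Correlations between mice of the same group do not use the difference between the groups, so they were tested. The spread within groups does enter the standard error of the comparison by which the genes were chosen. The deviations of each gene from its group means were correlated over the 11 mice, and the mice were permuted within groups 100000 times (two-sided, smallest possible p 1e-05). Of 21 pairs of the 7 genes, 21 had a Pearson r above 0, with a range from 0.12 to 0.93 and a median of 0.71. After Benjamini-Hochberg adjustment over the 21 pairs, 8 pairs passed the threshold of 0.05 by r and 3 by Spearman's rho. The share of all gene pairs that would pass is not given here. An r near the median was not rare, as Saa3, with an r of 0.71, stood at place 1176 of the 12786 other genes for Hp. Within the 6 HFD + IMC mice alone r ranged from -0.07 to 0.97, with a median of 0.60. With the 2 mice farthest from the median of the first gene left out of each pair, r ranged from -0.15 to 0.92, with a median of 0.69.

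Lbp and Serpina3n varied together most closely. Their r was 0.93 (permutation p = 5e-05, adjusted p = 0.00105) and their rho 0.92 (permutation p = 0.00053, adjusted p = 0.0111). The r was 0.92 without HFD replicates 2 and 5. Hp and Serpina3n had an r of 0.93 (permutation p = 0.00052, adjusted p = 0.00546) and a rho of 0.77 (permutation p = 0.0131, adjusted p = 0.0616), and r was 0.79 without HFD replicate 5 and HFD + IMC replicate 6. Hp and Lbp had an r of 0.82 (permutation p = 0.00151, adjusted p = 0.0106) and a rho of 0.75 (permutation p = 0.0154, adjusted p = 0.0616), and r was 0.64 without the same 2 mice. By r these 3 secreted proteins formed the tightest group.

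The r of Steap4 was larger with Orm1 and Saa3 than with Hp. For Orm1 and Steap4, r was 0.78 (permutation p = 0.00728, adjusted p = 0.0306) and rho 0.83 (permutation p = 0.00592, adjusted p = 0.0414), and r was 0.81 without HFD + IMC replicate 4 and HFD replicate 5. For Saa3 and Steap4, r was 0.71 (permutation p = 0.0221, adjusted p = 0.0516) and rho 0.68 (permutation p = 0.0364, adjusted p = 0.0695), and r was 0.87 without HFD replicates 1 and 5. For Hp and Steap4, r was 0.44 (permutation p = 0.216, adjusted p = 0.252) and rho 0.64 (permutation p = 0.0535, adjusted p = 0.0865). Whether these coefficients differ from each other was not tested. Cp was the least related to the rest by r, with 0.12 for Cp and Steap4 (permutation p = 0.736) and 0.15 for Saa3 and Cp (permutation p = 0.662). The latter turned to -0.15 without HFD replicates 1 and 5. By rho, however, Hp and Cp were among the closest pairs, with a rho of 0.86 (permutation p = 0.00253, adjusted p = 0.0266) beside an r of 0.64 (permutation p = 0.052, adjusted p = 0.078).

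**Figure D4:**
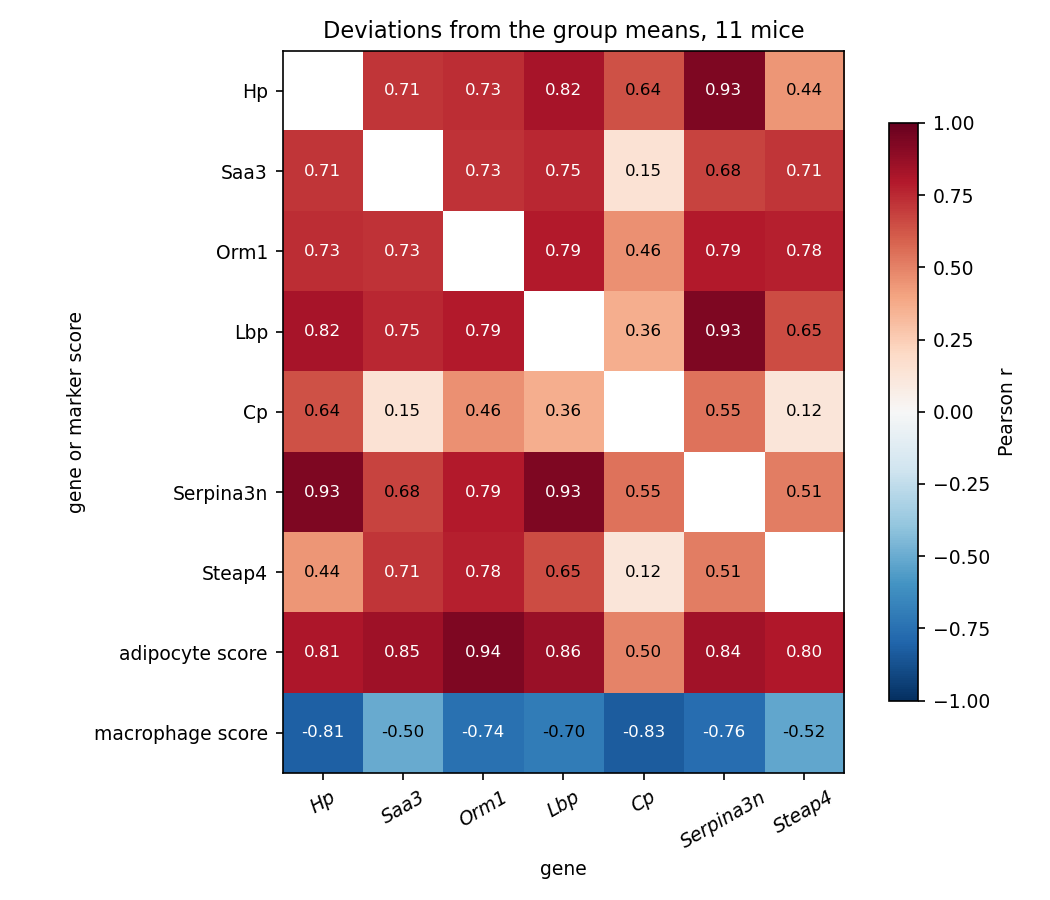
Pearson r between deviations from the group means over the 11 mice, for each pair of the 7 acute phase genes and for each gene against the adipocyte and macrophage marker scores, with red for positive and blue for negative r. The gene pairs range from 0.12 to 0.93, the adipocyte row from 0.50 to 0.94 and the macrophage row from -0.83 to -0.50.

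Within groups the acute phase genes also varied with the marker scores, the mean over each marker list of log2 CPM centred per gene. With the adipocyte score, r ranged from 0.50 to 0.94 with a median of 0.84, and 6 of 7 genes passed an adjusted p of 0.05 by r and 4 by rho, adjusted over 14 relations. The share of all genes that would pass is not given here for this score or the macrophage score. The counts for both scores are thus not read as particular to the 7 genes. Orm1 had the highest r, 0.94 (permutation p = 0.00082, adjusted p = 0.00829), with a rho of 0.90 (permutation p = 0.00122, adjusted p = 0.00854). Cp had the lowest r, 0.50 (permutation p = 0.103, adjusted p = 0.103), with a rho of 0.58 (permutation p = 0.0564, adjusted p = 0.0607). HFD replicates 2 and 5 had the highest adipocyte scores of the controls, and without them the median r was 0.72.

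With the macrophage score the sign was the reverse. The r ranged from -0.83 to -0.50 with a median of -0.74, and 5 of 7 genes passed an adjusted p of 0.05 by r and 6 by rho. Cp had the lowest r, -0.83 (permutation p = 0.00237, adjusted p = 0.00829), with a rho of -0.85 (permutation p = 0.0041, adjusted p = 0.0191). For Saa3, r was -0.50 (permutation p = 0.0655, adjusted p = 0.0765) and rho -0.60 (permutation p = 0.0228, adjusted p = 0.0354), and for Steap4, r was -0.52 (permutation p = 0.1, adjusted p = 0.103) and rho -0.55 (permutation p = 0.0902). Without HFD + IMC replicates 4 and 6 the median r was -0.68.

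For each of the 7 genes, the 2 genes of the whole table with the highest r of within-group deviations over the 11 mice are named as a description. For Hp these were Gkap1 and E130310I04Rik (r 0.97 each), and for Saa3 they were Ppp2r1b (r 0.97) and Tshr (r 0.96). For Orm1 they were Cfd (r 0.98), which encodes the adipocyte protease adipsin, and Hibadh (r 0.96), a mitochondrial dehydrogenase. For Lbp they were Ebf3 and Slc22a2 (r 0.95 each), for Cp Tmem216 (r 0.96) and Pars2 (r 0.95), for Serpina3n Sfxn5 and Mzt2 (r 0.98 each), and for Steap4 Rhoq and Prr32 (r 0.93 each). None of these was another of the 7 genes. Levels were low for E130310I04Rik and Slc22a2, with means of -0.04 and 0.36 log2 CPM in HFD mice and as few as 16 and 22 reads. Serpina3n was the closest of the 7 to Lbp, at place 7 of the 12786 other genes, and to Hp, at place 33. Other places were farther, as for Hp, where Orm1 was at place 1017, Saa3 at 1176 and Steap4 at 3376. Steap4 was at place 5857 for Cp, the most distant place of any pair.

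Of 30 other acute phase reactants of plasma, 19 were listed, and 6 were higher, 1 lower and 12 not called. Over all genes, 40.9% were called in either direction, 20% higher and 21.0% lower. The share of this list called in either direction was near that of all genes, but its called genes were mostly higher. Whether this lean differs from all genes was not tested. The list had a median log2 fold change of 0.14 against -0.03 over all genes. Orm2, the paralog of Orm1, had a log2 fold change of 0.96 (adjusted p = 0.00322, SE 0.21) at a low level, 1.10 log2 CPM in HFD mice and 2.06 in HFD + IMC mice. Part of its transcript sequence is shared with Orm1. Cfb, which encodes complement factor B, rose by 0.49 (adjusted p = 0.000108, SE 0.06). The gene that was lower, named after its value was seen, was Serping1, which encodes the inhibitor of complement C1, at -0.22 (adjusted p = 0.0104, SE 0.06). Without HFD + IMC replicate 4, 2 genes were lower. Saa1, Saa2, Saa4, Orm3, Crp and Apcs were not analysed here.

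**Figure D5:**
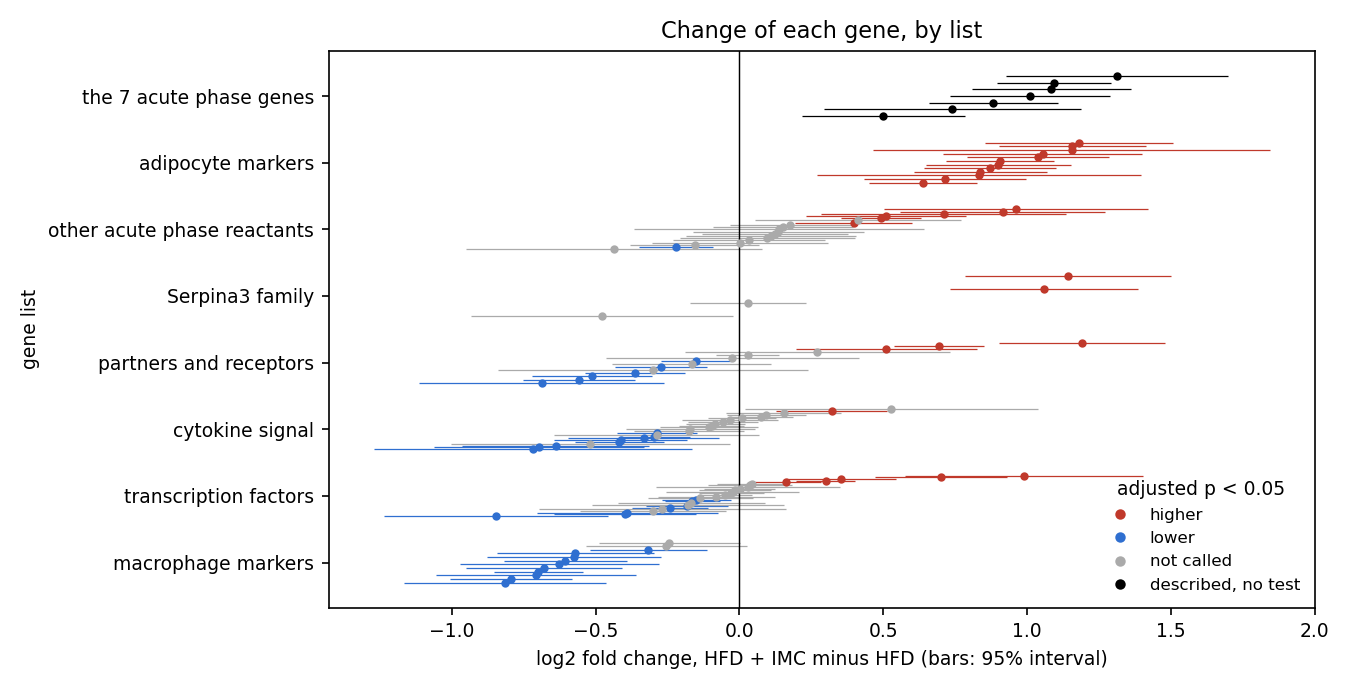
Log2 fold change, HFD + IMC minus HFD, of each gene in 8 groups of genes, with the 95% interval as a bar. The 7 acute phase genes are drawn in black without a test and lie between 0.50 and 1.31, near the adipocyte markers, while the medians of the cytokine signal and transcription factor lists are -0.17 and -0.07 and the macrophage markers lie below 0.

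In the Serpina3 cluster, the paralogs of Serpina3n, 4 of 10 genes were listed, and 2 were higher, 0 lower and 2 not called. For comparison, 20% of all genes were higher and 21.0% lower. Serpina3c rose by 1.14 (adjusted p = 0.000223, SE 0.17) and Serpina3m by 1.06 (adjusted p = 0.000205, SE 0.15), while Serpina3h had a log2 fold change of -0.48 (adjusted p = 0.0874, SE 0.21) and Serpina3k one of 0.03 (adjusted p = 0.829, SE 0.09). Serpina3c was among the genes that shared the most windows of 50 bases with Serpina3n. Whether Serpina3h, Serpina3k or Serpina3m share such windows with Serpina3n is not given here. How reads from shared windows were counted was not examined. Per length, Serpina3n had a mean level of 161 CPM per kilobase in HFD mice, and these paralogs were below it, with 34.0 for Serpina3c, 4.04 for Serpina3k, 2.82 for Serpina3m and 1.88 for Serpina3h.

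A list of 23 genes held receptors and binding partners of the acute phase proteins, related ferroxidases and Steap paralogs. Of these, 14 were listed, and 3 were higher (Heph, Hephl1 and Slc22a17), 6 lower and 5 not called, where 20% of all genes were higher and 21.0% lower. For haptoglobin, the scavenger receptor gene Cd163 had a log2 fold change of 0.27 (adjusted p = 0.335, SE 0.21). For Lbp, the genes of the lipopolysaccharide receptor were lower in HFD + IMC mice. The macrophage markers were also lower, 10 of 12 with a median log2 fold change of -0.62, and their part in these values was not tested. Cd14 had a log2 fold change of -0.56 (adjusted p = 0.000437, SE 0.09), Tlr4 one of -0.27 (adjusted p = 0.0102, SE 0.07) and Ly96, the partner of Tlr4, one of -0.51 (adjusted p = 0.00118, SE 0.10). For ceruloplasmin, both related membrane ferroxidases were higher, Heph by 0.69 (adjusted p = 3.5e-05, SE 0.07) and Hephl1 by 1.19 (adjusted p = 4.59e-05, SE 0.13), each without overlap between the groups.

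Neither listed paralog of Steap4 was higher in HFD + IMC mice. Steap3, the iron reductase of endosomes, had 7.39 log2 CPM in HFD mice and 7.24 in HFD + IMC mice, a log2 fold change of -0.15 (adjusted p = 0.0471, SE 0.06), and Steap2 had one of -0.02 (SE 0.20, 95% interval -0.46 to 0.41, adjusted p = 0.937). Slc22a17, which encodes a receptor for lipocalin-2, the product of Lcn2, rose by 0.51 (adjusted p = 0.0138, SE 0.15).

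Of 28 ligands, receptors and adaptors of the cytokine signal that is known to drive acute phase genes, 23 were listed, and 1 was higher, 8 lower and 14 not called. The share called in either direction was near the 40.9% of all genes, where 20% were higher and 21.0% lower. The list had a median log2 fold change of -0.17. The gene that was higher, named after its value was seen, was Lifr, the receptor of leukemia inhibitory factor, at 0.32 (adjusted p = 0.0119, SE 0.09). Without HFD + IMC replicate 6, 2 genes of this list were higher. Il11ra1, the interleukin-11 receptor, fell by 0.42 (adjusted p = 0.000651, SE 0.07), Myd88, the adaptor of Toll-like and interleukin-1 receptors, by 0.30 (adjusted p = 0.0013, SE 0.06) and Tyk2, a Janus kinase, by 0.29 (adjusted p = 0.00362, SE 0.06). Il6, Il1a and Il1b were not analysed here. Tnf, the gene of tumor necrosis factor, is named after its value was seen and was 1 of the 8 lower genes. Its log2 fold change was -0.70 (adjusted p = 0.00564, SE 0.17), without overlap between the groups. The level of Tnf was low, 2.64 log2 CPM in HFD mice and 1.95 in HFD + IMC mice.

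Among transcription factors and feedback inhibitors of the response, 26 of 28 genes were listed, and 5 were higher, 7 lower and 14 not called, with a median log2 fold change of -0.07, where 20% of all genes were higher and 21.0% lower. The 3 with the smallest p were higher in HFD + IMC mice. Stat5a rose by 0.30 (adjusted p = 0.000384, SE 0.05), Ppara, a receptor of fatty acids, by 0.99 (adjusted p = 0.00142, SE 0.19) and Pparg, the master regulator of adipocytes, by 0.70 (adjusted p = 0.000292, SE 0.11). The following genes are named after their values were seen. The 7 lower genes were Nfkb1 (log2 fold change -0.24), Nfkb2 (-0.18), Rela (-0.16), Nfkbiz (-0.40), Socs1 (-0.85), Socs3 (-0.39) and Pias1 (-0.15). Cebpa (0.35) and Nr1h3 (0.16) were also higher. Stat3 (0.04), Cebpb (-0.18), Cebpd (-0.27), Cebpg (-0.03) and Relb (-0.05) were among those not called. The count of lower genes was 4 with limma without a trend, with median-of-ratios scaling, and without HFD replicate 1, HFD replicate 4 or HFD + IMC replicate 6, and 8 with voom on recovered reads and with total-count scaling.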

How the data were processed

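The mRNA of gonadal WAT from 11 mice was sequenced from directional libraries. The authors trimmed reads with Trim Galore, checked them with FastQC, mapped them to mm10 (UCSC transcripts) with STAR, counted reads per gene with the aligner, removed low transcripts and scaled libraries by the upper quartile in edgeR. The authors deposited log2 CPM per mouse for 12787 genes. The deposited table also holds the authors' comparison (log2 fold changes, mean levels in log2 CPM, a likelihood-ratio score and its p-value and FDR), none of which was used. Groups came from the sample labels.

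The members and all gene lists were chosen with earlier results of these data known. Groups were compared with limma 3.58.1 in R 4.3.3 (lmFit, eBayes with trend) on the deposited log2 CPM, with group as the only factor, no further filter and Benjamini-Hochberg adjustment over 12787 genes at 0.05. The table held log values, so a count test was not the main test. In each mouse 100% of values gave whole reads (tolerance 0.01) plus a constant near 0.25 read, and 1 read was worth 0.0403 to 0.0450 CPM. These reads gave depths and alternative scalings, and counting error only is covered by depth. Within-group correlations used permutations within groups. With Lcn2 not analysed here, 21 pairs and 14 relations were tested.

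Genes were named by rule: the members, the 3 genes of smallest p in each list, listed Saa, Orm, Serpina3 and Steap paralogs, the partners Cd163, Slc22a17, Cd14, Tlr4, Ly96, Slc40a1 and Heph, and the 2 genes most like each member. Slc40a1 was not analysed here. Of the genes the rule names, 1 is not reported here. For cell types other than adipocytes and macrophages, the rule was not followed: markers were given as counts, and those named were chosen after their values were seen. Coordinates, exons and lengths are from GENCODE M21 (GRCm38, the build of mm10), with 12343 genes matched to a length by symbol. Promoter windows are from RefSeq (GRCm38.p6), and 4 of the 7 genes matched. Alternatives were limma without a trend, voom on recovered reads, an added constant of 2 reads, total-count and median-of-ratios scaling, a mean log2 CPM of at least 2, and leaving out each mouse. The limma step and the recovery of reads were tested on simulated data. Python 3.11.15 with numpy, pandas, scipy and matplotlib was used for the rest.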

Additional observations from a re-analysis of the deposited data

Results flagged for a closer look

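Among 30 groups of values tested for a sample far from the others (15 quantities in each of the 2 groups), 2 stood out, and chance alone marks about 1 in 20 groups. Both belonged to the same mouse, HFD + IMC replicate 1. Saa3 was at 6.74 log2 CPM in this mouse, with the next mouse at 6.30, a gap of 0.670 of the range of the group where the critical value is 0.625. Steap4 was at 9.23 log2 CPM in it, with the next mouse at 8.92, a gap of 0.688 of the range. Without this mouse the log2 fold change was 0.65 for Saa3 and 1.03 for Steap4. The cause was not tested.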

How the results depend on the processing

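The count of the 7 acute phase genes called higher was 7 and that of genes called lower 0 under every alternative run, and 0 results reversed. The genes were chosen on this same comparison, so nothing is read from their count. When single mice were left out, the log2 fold change was 1.23 to 1.46 for Hp, 0.58 to 0.92 for Saa3, 1.01 to 1.16 for Orm1, 0.83 to 0.96 for Lbp, 0.43 to 0.58 for Cp, 0.94 to 1.12 for Serpina3n and 1.03 to 1.16 for Steap4. The other settings moved these values less, as for Hp (1.28 to 1.32) and Saa3 (0.71 to 0.75). Total-count scaling moved the median of all genes to -0.06, from -0.03. Over all genes, 4299 to 5464 were called across settings.

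Of the lists, transcription factors called lower numbered 4 with limma without a trend and with median-of-ratios scaling, 4 to 6 with a mouse left out, and 8 with voom on recovered reads and with total-count scaling, against 7. Other acute phase reactants called lower numbered 1 to 2 with a mouse left out, and genes of the cytokine signal called higher 1 to 2. The causes were not tested. The median r of the 7 genes with the adipocyte score was 0.72 without the 2 mice farthest from the median. No paired analysis was possible because the replicate numbers only name the mice, and the mice of the groups are different animals that the labels do not tie to each other.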
